A study of Mus musculus with 8 samples.

Results

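Annexins are proteins that bind acidic phospholipids when calcium is present. The members described here were the rows of the symbols Anxa1, Anxa2, Anxa3, Anxa4, Anxa5, Anxa7, Anxa8, Anxa10 and Anxa11, taken by name from both count tables, which made 9 of 27775 gene rows. Each annexin has a conserved core that docks on the inner face of cell membranes and a variable N-terminal end that can bind partner proteins such as S100 proteins. The family takes part in membrane repair, vesicle traffic and cell surface proteolysis. Anxa2 is known as a surface receptor of the plasminogen system, Anxa1 as a ligand of formyl peptide receptors on myeloid cells, and Anxa10 for its expression in stomach epithelium.

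Single-cell 3′ libraries (10x Genomics Chromium) were made from 1 medium-size and 1 large-size pancreatic ductal adenocarcinoma of untreated KPC mice, called the medium and the large tumor from here on. In KPC mice Pdx-1-Cre acts in the pancreatic lineage on conditional alleles, among them a mutant Trp53 allele, and both tumors carry the same ones. No normal pancreas was compared, and the age of the mice is not in the labels. For each tumor 4 technical replicates are labelled, but the counts of unique molecular identifiers (UMIs, each standing for 1 captured mRNA molecule) come in 1 pooled table, so each tumor was 1 sample and no test was made. Levels are UMIs per 1000000 UMIs (CPM) with exact 95% Poisson intervals, ratios carry exact 95% intervals, and both cover counting error only, not the spread between animals.

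The medium tumor held 2812 cells and 20301669 UMIs with a median of 5456.5 per cell, and the large tumor 1533 cells and 2239012 UMIs with a median of 1037, so its values are less precise. The tables shared 5 cell barcodes, and the 13 mitochondrial rows were at 0 in both. Cells were clustered without the 9 annexins and clusters were named from marker lists. In the medium tumor 2330 cells were epithelial-like, 238 monocyte/macrophage-like, 74 mesothelial-like, 67 stromal-like and 39 endothelial-like. A cluster of 64 cells carried 10 of 11 epithelial and 7 of 11 macrophage markers and stayed unnamed. It also had the highest summed granulocyte and red blood cell markers of the classes in that tumor, at 1125 and 3151 CPM. The large tumor had 1219 epithelial-like, 253 monocyte/macrophage-like, 50 stromal-like and 11 endothelial-like cells. The epithelial-like cells stand for the carcinoma cells here. In the large tumor they included clusters led by genes of intestinal epithelium, and several ratios are therefore also given without them.

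The genes lie on 7 chromosomes (GRCm38, the build of mm10, with the GENCODE M21 annotation), and 3 of them on chromosome 14. Anxa7 was at chr14:20455260-20480133, Anxa11 at chr14:25842156-25886804 and Anxa8 at chr14:34085981-34100571. Anxa5 was at chr3:36448923-36475894, Anxa3 at chr5:96793339-96845966, Anxa4 at chr6:86736840-86793584, Anxa10 at chr8:62057042-62123150, Anxa2 at chr9:69453620-69491795 and Anxa1 at chr19:20373428-20390944. An antisense gene, Anxa11os, overlaps Anxa11, and its part in the counts of Anxa11 was not tested.

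RefSeq promoters (GRCm38.p6, the 250 bases before the start site) were found for 8 of the 9 members, and Anxa3 had none. Those of Anxa10 and Anxa8 are shown because their levels had the widest range between carcinoma clusters of the medium tumor, and that of Anxa5 because its level was highest in the mesenchymal-like clusters of both tumors. Capitals mark matches on either strand to 5 motifs, the AP-1 motif TGANTCA, the TEAD motif GGAATG, the GATA motif AGATAA, the CDX motif TTTATG and the TATA box TATAAA, and no match overlapped another in these windows.
Anxa10 (chr8:62123194-62123443, minus strand): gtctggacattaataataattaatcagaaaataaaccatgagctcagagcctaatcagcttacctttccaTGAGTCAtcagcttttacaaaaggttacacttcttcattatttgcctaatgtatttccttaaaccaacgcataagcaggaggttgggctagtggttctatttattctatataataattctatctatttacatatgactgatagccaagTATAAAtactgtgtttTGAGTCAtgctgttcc
Anxa8 (chr14:34085729-34085978, plus strand): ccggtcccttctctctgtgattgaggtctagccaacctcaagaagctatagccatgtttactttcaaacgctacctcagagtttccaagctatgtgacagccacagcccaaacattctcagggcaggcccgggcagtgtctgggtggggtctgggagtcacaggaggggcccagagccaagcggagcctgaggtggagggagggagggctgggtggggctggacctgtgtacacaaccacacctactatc
Anxa5 (chr3:36475888-36476137, minus strand): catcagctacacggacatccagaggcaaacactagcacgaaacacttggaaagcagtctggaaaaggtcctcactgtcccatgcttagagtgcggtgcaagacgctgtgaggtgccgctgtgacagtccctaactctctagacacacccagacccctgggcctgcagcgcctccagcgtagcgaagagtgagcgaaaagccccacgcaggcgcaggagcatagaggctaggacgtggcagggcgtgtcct

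The Anxa10 window held 2 AP-1 matches, starting 180 and 16 bases before the start site, and a TATA box starting 32 bases before it. Among 32851 mouse promoter windows of this length, 6.75% held an AP-1 match and 12.4% a TATA box. The Anxa10 window was 33.6% G or C with 1 CpG, against medians of 52.4% and 6 CpG over all windows. The Anxa8 window was 58.0% G or C with 4 CpG, and the Anxa5 window 58.8% with 13 CpG. Neither held any of the 5 motifs, and the TEAD, GATA and CDX letters were found in 12.6%, 9.99% and 10.8% of all windows. A match in letters is a description of the sequence, not a site.

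Over all cells of the medium tumor the annexins covered a wide range of 3′ UMI levels, a count that does not scale with transcript length. Anxa2, which pairs with S100a10, had the highest level of the 9, 1780 CPM, and ranked 95 of 17787 genes with a UMI. Anxa3 was at 671 CPM, Anxa1 at 435 CPM, Anxa4 at 397 CPM and Anxa5, which binds exposed phosphatidylserine, at 304 CPM. Anxa8 was at 175 CPM, Anxa7 at 139.9 CPM and Anxa10 at 97.1 CPM. Anxa11 had 319 UMIs, or 15.7 CPM. The large tumor had Anxa3, at 898 CPM, above Anxa2 at 746 CPM and Anxa5 at 596 CPM. Anxa8 and Anxa11 had only 45 and 6 UMIs there, under the minimum of 200 UMIs set for a gene to enter a comparison.

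Anxa4 and Anxa10 were at least 2-fold higher in epithelial-like cells than in all other cells of both tumors. In the medium tumor 3 of 9 annexins were past 2-fold in that direction, Anxa8 being the other, where 11.2% of 7838 genes compared were, and 0 were at least 2-fold lower, where 8.01% of genes were. Of 7 annexins compared in the large tumor, 2 were at least 2-fold higher, against 15.8% of 1547 genes, and 0 at least 2-fold lower, against 8.47%. The median log2 ratio was 0.91 over the annexins and 0.19 over all genes compared in the medium tumor, and 0.66 and 0.23 in the large tumor.

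Anxa10 was at 107 CPM (102 to 111) in epithelial-like and at 20.3 CPM in the other cells of the medium tumor, a ratio of 5.25 (3.91 to 7.22). It was at 57.9 CPM in the unnamed cluster, 33.2 CPM in mesothelial-like, 32.9 CPM in endothelial-like, 9.04 CPM in stromal-like and 2.17 CPM in monocyte/macrophage-like cells. The epithelial-like level lay above that of the unnamed cluster beyond counting error, and no other neighbours in this order were apart. The large tumor had Anxa10 at 185 CPM in epithelial-like cells against 25 CPM in the others, a ratio of 7.40 (3.56 to 18.5). Over the settings tried, the ratio with 1 UMI added ran in the medium tumor from 3.70 to 10.3, with the highest value when the 5% of cells with the highest doublet scores were left out. For the large tumor it ran from 2.69, when each cell was classed by its own markers, to 6.93.

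Anxa4, an annexin of secretory epithelia, was at 425 CPM in epithelial-like cells against 165 CPM in the other cells of the medium tumor, with a ratio of 2.57 (2.32 to 2.87). Its level was lowest in stromal-like cells, 54.2 CPM in the medium and 14.7 CPM (1 UMI) in the large tumor. For the large tumor the ratio of epithelial-like to other cells was 4.48 (2.81 to 7.61), and with 1 UMI added it was 1.93 when each cell was classed by its own markers.

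Anxa2, Anxa3 and Anxa7 were also above the other cells in epithelial-like cells of the medium tumor but did not pass 2-fold. Anxa2 was at 1883 CPM there and at 659 CPM in monocyte/macrophage-like cells, and its ratio to all other cells was 2.00 (1.91 to 2.09), just under the threshold before rounding. Anxa3 was at 705 CPM against 394 CPM, a ratio of 1.79 (1.67 to 1.92), and Anxa7 at 147 CPM against 78.1 CPM, a ratio of 1.89 (1.62 to 2.22). At the clustering resolution of 1.2 the ratio with 1 UMI added was 1.22 for Anxa2 and 1.24 for Anxa7. With the unnamed cluster left out of the other cells, 5 annexins were at least 2-fold higher, where 13.9% of genes were, and 0 lower, where 7.98% were, with Anxa2 at 2.14 (2.04 to 2.25) and Anxa7 at 2.06 (1.73 to 2.47).

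Anxa8 was high in carcinoma, mesothelial-like and stromal-like cells and low in myeloid cells. It was at 188 CPM in epithelial-like, 151 CPM in mesothelial-like, 120.5 CPM in stromal-like, 115 CPM in endothelial-like and 70.1 CPM in unnamed cells of the medium tumor, and no neighbours in that order were apart. The level in monocyte/macrophage-like cells was 8.69 CPM, apart from the lowest of these. Its ratio of epithelial-like to all other cells was 2.63 (2.25 to 3.11), but 1.16 with 1 UMI added at the clustering resolution of 1.2, where the 226 mesenchymal-like cells lost their epithelial name.

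Anxa1 and Anxa5 were not higher in carcinoma cells than in every other class. Nor was Anxa7 in the medium tumor, at 148 CPM (36 UMIs) in endothelial-like and 147 CPM in epithelial-like cells. Anxa11 was at 28.7 CPM (7 UMIs) in endothelial-like and 16.2 CPM in epithelial-like cells there. Anxa2 in the large tumor was at 880 CPM in stromal-like and 778 CPM in epithelial-like cells, and none of these pairs were apart. Anxa1 was at 450.0 CPM (440.3 to 459.9) in epithelial-like cells of the medium tumor and at 610.5 CPM (536 to 693) in mesothelial-like cells, which was 136% (119 to 154) of the epithelial-like level. It was at 337 CPM in stromal-like and 209 CPM in monocyte/macrophage-like cells. Anxa1 in the large tumor was at 528 CPM (370.0 to 731) in stromal-like, 331 CPM (256 to 422) in monocyte/macrophage-like and 299.7 CPM (276 to 325) in epithelial-like cells. No neighbours in that order were apart, but the stromal-like level was 176% (122 to 247) of the epithelial-like level. Anxa5 was at 358 CPM in stromal-like, 309 CPM in epithelial-like and 214 CPM in monocyte/macrophage-like cells of the medium tumor, with no neighbours apart over the 6 groups. In the large tumor it was at 688 CPM (11 UMIs) in endothelial-like, 631 CPM in epithelial-like and 543 CPM in stromal-like cells, which were not apart, and at 260.0 CPM in monocyte/macrophage-like cells, apart from these. Its ratio of epithelial-like to all other cells there was 1.79 (1.46 to 2.22). With 1 UMI added that ratio ran over the settings tried from 0.856 to 2.15 there and from 0.711 to 1.21 in the medium tumor. Its direction thus turned in both tumors. The mesothelial-like cluster of the medium tumor also carried stromal markers, with 9 of 10 detected and a summed level of 12692 CPM against 14309 CPM in stromal-like cells, and the 6 mesothelial markers at 2038 against 232 CPM. The part of these shared markers in the Anxa1 and Anxa8 levels of both classes was not tested. No mesothelial-like class was named in the large tumor, and its stromal-like cells held the mesothelial markers, 6 of 6 with a UMI, at 382 CPM. Acinar markers, 4 of 7 with a UMI, were at 895 CPM there and at 39.2 CPM in stromal-like cells of the medium tumor. The part of these cells in the Anxa1 level of that class was not tested either.

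Free RNA from carcinoma cells can give UMIs in other cells of droplet data. The 11 epithelial markers together were at 5.75% of their epithelial-like level in monocyte/macrophage-like cells of the medium tumor. Anxa10 was at 2.04% (0.247 to 7.38, from 2 UMIs) and Anxa8 at 4.63% (2.00 to 9.13, from 8 UMIs) of their own epithelial-like levels there, not above the markers. The source of these counts was not tested. The other 7 annexins were at 35.0% to 69.2%, at least 6.09 times the share of the markers. In the mesothelial-like, stromal-like and endothelial-like cells the markers were at 24.9%, 11.1% and 36.6%, and Anxa10 at 31.2%, 8.48% and 30.8%. Anxa4 was near the marker share in the first 2, at 25.2% (18.2 to 34.1) in mesothelial-like and 12.8% (7.56 to 20.2) in stromal-like cells. It was at 46.4% (34.2 to 61.6) in endothelial-like cells, an interval that held the marker share. The endothelial-like cluster itself passed 3 of 11 epithelial markers. How far the markers stand for free RNA in these 3 classes was not tested. Anxa8 was at 80.2% (60.9 to 104) in mesothelial-like and 64.2% (45.7 to 87.5) in stromal-like and 61.2% (40.6 to 88.6) in endothelial-like cells, each with an interval above the marker share. In the large tumor the markers were at 5.13% in monocyte/macrophage-like and 17.1% in stromal-like cells. Anxa10 was there at 5.52% (0.665 to 20.1) and 31.8% (8.61 to 82.0), from 2 and 4 UMIs.

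**Figure D1:**
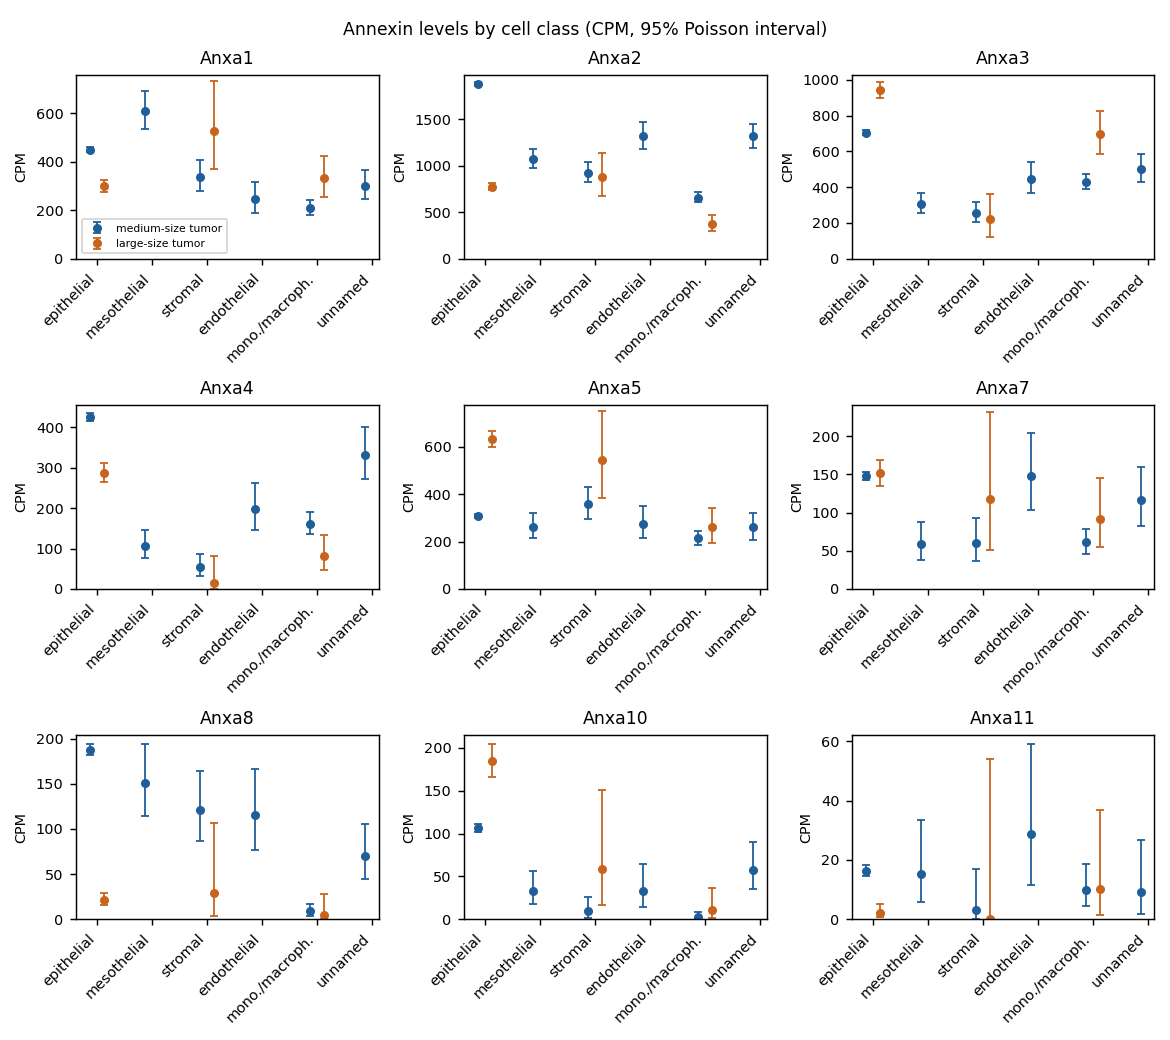
Levels of the 9 annexins by cell class in CPM (y axis) with 95% Poisson intervals in both tumors, leaving out classes under 20 cells. Anxa4 and Anxa10 had their highest values in epithelial-like cells of both tumors, while Anxa8 was at 188 CPM in the medium and 21.4 CPM in the large epithelial-like cells.

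The 8 epithelial-like clusters of the medium tumor were compared to see how annexin levels varied among carcinoma cells. All 9 annexins had a ratio of at least 2 between their highest and lowest cluster, from 2.11 for Anxa7 to 9.30 for Anxa10, with 5.85 for Anxa8 and 4.5 for Anxa5. So wide a range was common, since 68.2% of 7315 genes had such a ratio of at least 2, with a median of 2.39, and 91.8%, 87.3% and 82.3% of genes had a lower ratio than Anxa10, Anxa8 and Anxa5. Cluster 1 was led by the gastric pit genes Gkn1 and Gkn2, cluster 2 by Cldn6 and Hmga2, cluster 3 by mitotic genes such as Top2a, cluster 4 by Reg1, Reg3b and Ly6k, cluster 5 by Yap1 and Birc2, cluster 6 by Krt17, Tnc and Fn1, cluster 7 by Dmbt1 and Sftpd, and cluster 8 by Inhba and Bmp2.

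Anxa10 was at 178 CPM in the gastric pit cluster, 175 CPM in the Cldn6 and Hmga2 cluster and 135 CPM in the cycling cluster. It was at 109 CPM in the Yap1 cluster, 52.6 CPM in the Reg1 and Ly6k cluster and 42.8 CPM in the Inhba and Bmp2 cluster. It was at 19.6 CPM in the Dmbt1 and Sftpd cluster and 19.1 CPM in the Krt17 and Tnc cluster. The first pair, the Reg1 and Inhba pair and the last pair were not apart beyond counting error, and the other neighbours were.

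Anxa8 kept part of this order. It was at 297 CPM in the Cldn6 and Hmga2 cluster, 255 CPM in the Inhba and Bmp2 cluster, 229 CPM in the cycling cluster and 223 CPM in the gastric pit cluster. It was at 164 CPM in the Yap1 cluster, 97.3 CPM in the Krt17 and Tnc cluster, 53.8 CPM in the Reg1 and Ly6k cluster and 50.8 CPM in the Dmbt1 and Sftpd cluster. The Reg1 and Ly6k, the Dmbt1 and Sftpd and the Krt17 and Tnc clusters were low in both Anxa8 and Anxa10, whereas the Inhba and Bmp2 cluster was low in Anxa10 alone of the pair. Over the 8 clusters, which share 1 library, Pearson's r between the log2 levels of Anxa8 and Anxa10 was 0.72, and over the 7 of the large tumor, where Anxa8 was near its floor, it was -0.67.

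Anxa5 was at 559 CPM in the Inhba and Bmp2 cluster, 425 CPM in the Yap1 cluster, 366 CPM in the Krt17 and Tnc cluster and 356 CPM in the Cldn6 and Hmga2 cluster. It was at 294 CPM in the cycling cluster, 177 CPM in the gastric pit cluster, 142 CPM in the Reg1 and Ly6k cluster and 124 CPM in the Dmbt1 and Sftpd cluster. The gastric pit, Reg1 and Ly6k and Dmbt1 and Sftpd clusters thus held its 3 lowest levels.

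Anxa1, Anxa2 and Anxa3 had other orders. Anxa1 was at 909 CPM in the Krt17 and Tnc cluster and between 359 and 459.6 CPM in the other 7, whose neighbours were not apart. Anxa3 was at 1079 CPM in the same cluster, 908 CPM in the Yap1 cluster and 380.1 CPM, its lowest, in the Inhba and Bmp2 cluster. Anxa2 was at 2874 CPM in the Reg1 and Ly6k cluster, 2212 CPM in the Krt17 and Tnc cluster and 1191 CPM in the Yap1 cluster. Anxa4 ran from 537 CPM in the Reg1 and Ly6k cluster to 248 CPM in the Inhba and Bmp2 cluster, Anxa7 from 195 to 92.4 CPM, and Anxa11 from 24.0 to 9.97 CPM with no neighbours apart.

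Each of these clusters was then set against the other epithelial-like cells. In the Krt17 and Tnc cluster 1 annexin was at least 2-fold higher, Anxa1 at 2.28 (2.16 to 2.41), against 6.67% of 7315 genes, and 2 were at least 2-fold lower, Anxa10 at 0.164 (0.114 to 0.229) and Anxa8 at 0.491 (0.420 to 0.571), against 5.55%. In the Reg1 and Ly6k cluster 3 annexins were at least 2-fold lower against 8.07% of genes, Anxa8 at 0.269 (0.214 to 0.334), Anxa5 at 0.438 (0.381 to 0.501) and Anxa10 at 0.471 (0.373 to 0.588), and 0 were higher against 4.11%. The same 3 were at least 2-fold lower in the Dmbt1 and Sftpd cluster, against 8.94% of genes, Anxa10 at 0.172 (0.113 to 0.252), Anxa8 at 0.255 (0.198 to 0.323) and Anxa5 at 0.383 (0.327 to 0.446), and 0 were higher against 7.42%. No annexin passed 2-fold in the gastric pit, Cldn6 and Hmga2, cycling or Yap1 clusters, where 2.72%, 0.437%, 3.01% and 1.24% of genes were at least 2-fold higher and 4.37%, 3.98%, 5.91% and 8.05% at least 2-fold lower. Anxa10 in the gastric pit cluster was at 1.94 (1.75 to 2.14).

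**Figure D2:**
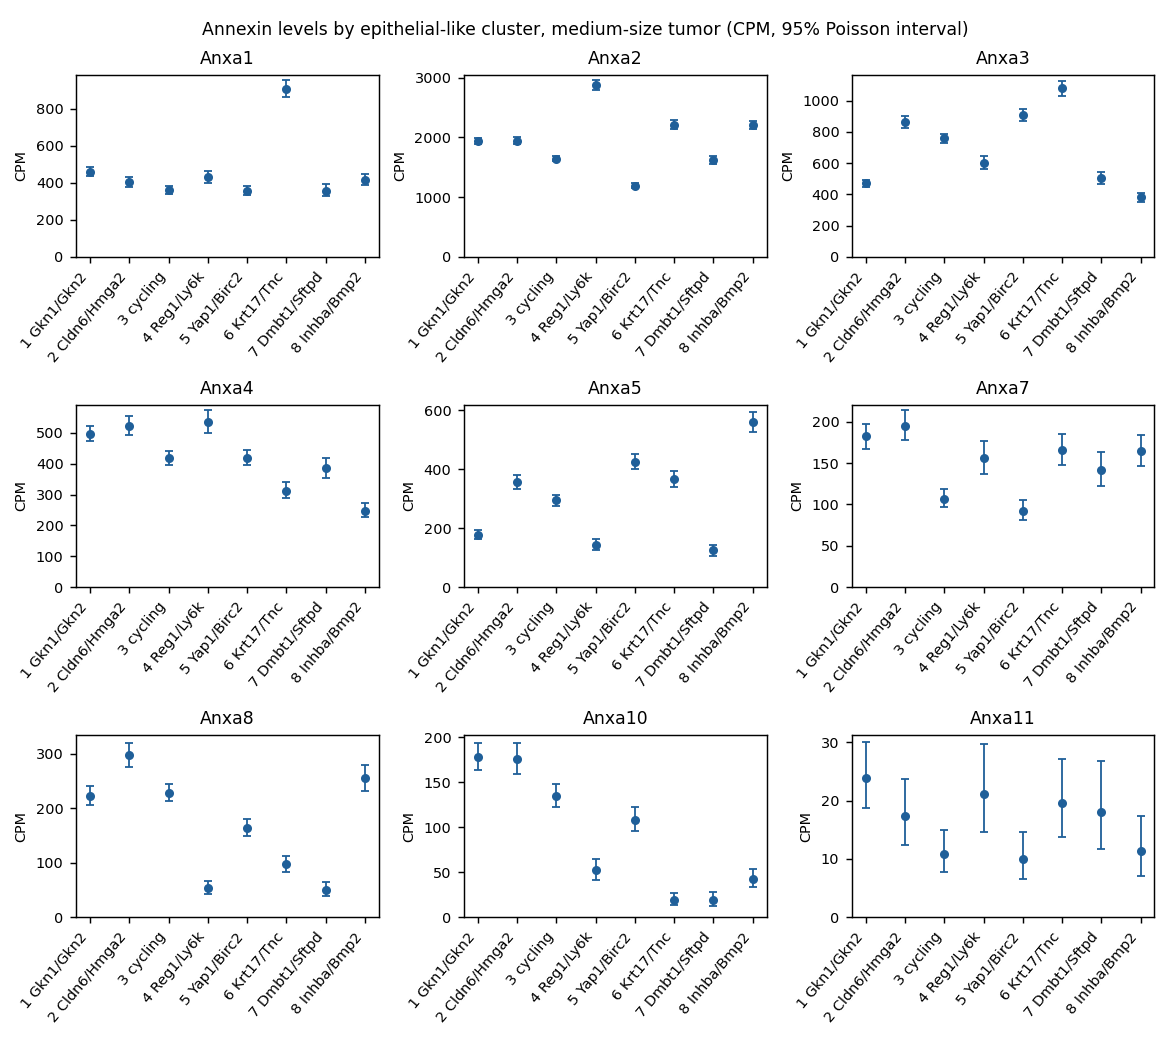
Levels of the 9 annexins by epithelial-like cluster of the medium tumor in CPM (y axis) with 95% Poisson intervals, with each cluster named by its number and leading genes. Anxa1 stood at 909 CPM in the Krt17 and Tnc cluster, where Anxa10 was at 19.1 CPM, and Anxa5 was highest in the Inhba and Bmp2 cluster.

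The mesenchymal-like cluster of each tumor was the epithelial-like cluster highest in a list with Vim, Zeb1, Wnt5a, Inhba and Bmp2. This was the Inhba and Bmp2 cluster of 226 cells in the medium tumor and a cluster of 276 cells led by Ggct and Hmga2 in the large tumor. Both passed only 3 of 11 epithelial markers, the fewest that keep the epithelial name. On this list, which also held Fn1 and Sparc, the Krt17 and Tnc cluster was next in the medium tumor, at 4225 against 5197 CPM. At a resolution of 1.2 all 226 and 172 of the 276 cells were in clusters left unnamed, so their place among carcinoma cells rests on the setting.

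Anxa5 had its highest carcinoma level in this cluster of both tumors. It was at 559 CPM against 281 CPM in the other epithelial-like cells of the medium tumor, a ratio of 1.99 (1.86 to 2.13), just under the threshold. It was at 1247 CPM against 449 CPM in the large tumor, a ratio of 2.78 (2.48 to 3.11), and 2.17 (1.93 to 2.44) without the intestinal clusters 4 and 6 and the small cluster 9. It was the only 1 of 7 annexins at least 2-fold higher there, against 5.71% of 1367 genes, and 0 were at least 2-fold lower, against 9.73%. Leaving those clusters out, 1 annexin was higher against 4.79% of genes and 0 lower against 3.67%. In the medium tumor 0 of 9 annexins were at least 2-fold higher, against 5.93% of 7315 genes, and 1 was at least 2-fold lower, against 9.54%.

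That annexin was Anxa10, at 42.8 CPM against 114 CPM in the medium tumor, a ratio of 0.376 (0.296 to 0.471). Over the settings tried it ran from 0.0634 to 0.390 with 1 UMI added, the lowest at a resolution of 1.2, where other cells were called mesenchymal-like. Its levels in the large tumor were 125 CPM against 203 CPM, a ratio of 0.618 (0.456 to 0.824), in the same direction but within 2-fold. Anxa4 was at 0.557 (0.506 to 0.612) in the medium and 0.677 (0.536 to 0.846) in the large tumor. Anxa3 was at 0.512 (0.474 to 0.553) and 0.799 (0.709 to 0.897), the latter 0.617 (0.547 to 0.693) without clusters 4, 6 and 9, but its direction turned under other settings, from 0.427 to 1.72 in the medium and from 0.618 to 1.13 in the large tumor. Anxa2 was at 1.19 (1.15 to 1.23) and 0.992 (0.878 to 1.12). The median log2 ratio of the annexins was -0.12 in the medium and -0.32 in the large tumor, against 0.05 and -0.03 over all genes compared. Without clusters 4, 6 and 9 it was -0.55 in the large tumor, against -0.04.

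The intestinal clusters of the large tumor were low in Anxa1, Anxa3 and Anxa5. Cluster 4, of 214 cells, was led by the enterocyte genes Fabp1 and Fabp2, and cluster 6, of 155 cells, by the goblet cell genes Muc2 and Tff3. In both as 1 group, 3 of 7 annexins were at least 2-fold lower, against 21.4% of 1367 genes, and 0 were at least 2-fold higher, against 11.6%. These were Anxa5 at 0.130 (0.0912 to 0.180), Anxa3 at 0.142 (0.108 to 0.183) and Anxa1 at 0.219 (0.145 to 0.318).

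In the enterocyte gene cluster Anxa1 was at 30.6 CPM (6 UMIs), Anxa3 at 96.8 CPM (19 UMIs) and Anxa5 at 66.2 CPM (13 UMIs). These were 0.0927, 0.0934 and 0.0954 of the level in the other epithelial-like cells, and these 3 annexins passed 2-fold where 35.7% of genes were lower and 12.2% higher. In the goblet gene cluster they were at 129, 229 and 134 CPM, and the same 3 passed 2-fold where 11.3% of genes were lower and 7.02% higher. In the gastric pit cluster of this tumor Anxa1 was at 492 CPM, Anxa3 at 863 CPM and Anxa5 at 334 CPM.

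Anxa2, Anxa4, Anxa7 and Anxa10 stayed within 2-fold in the intestinal clusters. Anxa4 was at 0.979 (0.785 to 1.21), Anxa7 at 0.941 (0.687 to 1.27) and Anxa2 at 0.901 (0.787 to 1.03) of the other epithelial-like cells. Anxa10 was at 264 CPM in them against 166 CPM, a ratio of 1.59 (1.25 to 2.01). It was at 307 CPM in the goblet gene cluster, 265 CPM in the gastric pit cluster and 224 CPM in the enterocyte gene cluster, and no neighbours in its order over the 7 clusters were apart. The 6 gastric pit genes together were at 66.2 CPM in the enterocyte gene cluster, 4179 CPM in the goblet gene cluster and 12976 CPM in the gastric pit cluster.

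Elsewhere in the large tumor, Anxa3 was at 1598 CPM in the cycling cluster, 2.47 (2.25 to 2.71) times the other epithelial-like cells, and was the only annexin at least 2-fold higher there, against 4.1% of genes, with 0 at least 2-fold lower, against 8.49%. Anxa1 and Anxa5 were at 1.27 (1.07 to 1.51) and 1.21 (1.07 to 1.36) in the cycling cluster. Set against cells outside clusters 4, 6 and 9 the ratio was 1.88 (1.72 to 2.07) for Anxa3, 0.984 (0.825 to 1.17) for Anxa1 and 0.896 (0.795 to 1.01) for Anxa5, so that the last 2 were no longer above 1, and then 0 annexins were higher, against 2.54% of genes, and 0 lower, against 2.91%. Cells of that cluster were deeper, with a median of 2474 UMIs. Anxa5 was at 0.488 (0.393 to 0.601) in the gastric pit cluster, the only annexin past 2-fold there, against 6.36% of genes lower and 2.19% higher. Without clusters 4, 6 and 9 it was at 0.385 (0.310 to 0.475) and again the only one, against 4.51% of genes lower and 2.82% higher. It was at 0.526 (0.481 to 0.575) in the gastric pit cluster of the medium tumor. In cluster 3, led by Malat1 and Wfdc2, 0 annexins were higher, against 0.0732% of genes, and 0 lower, against 6.22%, and without clusters 4, 6 and 9 the counts were 0, against 0.188%, and 0, against 4.89%.

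**Figure D3:**
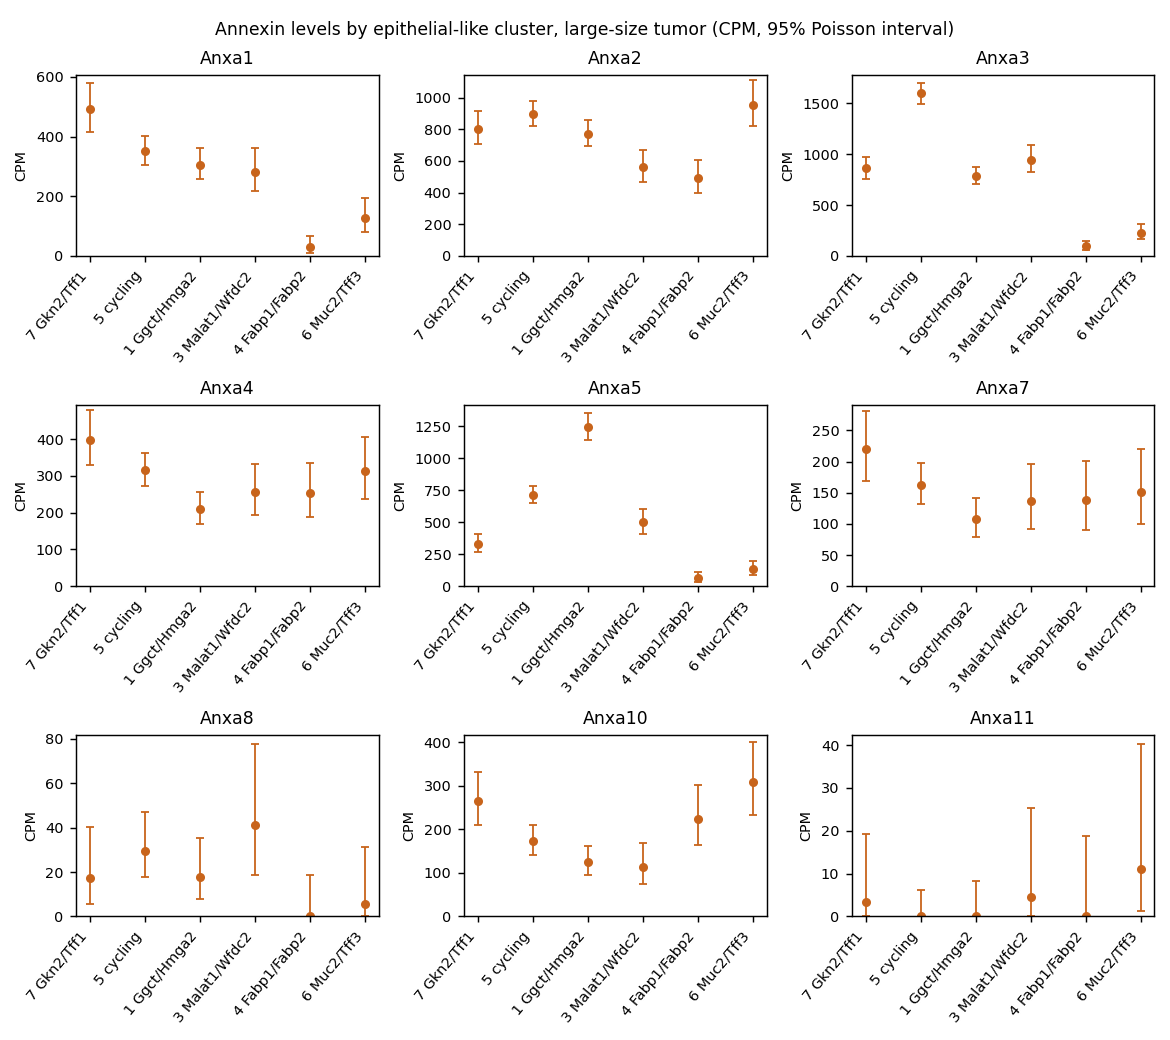
Levels of the 9 annexins by epithelial-like cluster of the large tumor in CPM (y axis) with 95% Poisson intervals, leaving out cluster 9 with 18 cells. Anxa1, Anxa3 and Anxa5 were low in the Fabp1 and Fabp2 and the Muc2 and Tff3 clusters, where Anxa10 was at 224 and 307 CPM.

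The tumors were compared in all epithelial-like cells and then in clusters of like state. Tumor size, animal, library and depth cannot be told apart here, since each size was 1 tumor and 1 table. In all epithelial-like cells 1 of 9 annexins was at least 2-fold higher in the large tumor, against 5.9% of 7633 genes. At least 2-fold lower were 3, against 17.3%. Of these, Anxa8 had 42 UMIs in the large and 3397 in the medium tumor, and Anxa11 had 4 and 293. Both passed the minimum of UMIs only through the medium tumor. That minimum acts on the sum of both tumors, and the medium tumor held more UMIs. A gene low in the large tumor thus entered more easily than the reverse, which also holds for the shares of all genes. The median log2 ratio was -0.56 over the annexins and -0.14 over all genes compared. TMM scaling, which centres the ratios on most genes, shifted them by 0.07. The monocyte/macrophage-like class differed in make-up between the tumors. Its granulocyte markers, 7 of 7 with a UMI in the medium and 5 of 7 in the large tumor, were together at 236 and 8288 CPM, and its red blood cell markers, 4 of 5 in both, at 35.8 and 1993 CPM. Their part in the annexin ratios of that class was not tested.

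Anxa8 was at 21.4 CPM (42 UMIs) in epithelial-like cells of the large tumor and at 188 CPM (3397 UMIs) in those of the medium tumor, a ratio of 0.114 (0.0821 to 0.155), at percentile 1.27 of the genes compared. In the gastric pit clusters it was at 17.2 and 223 CPM, a ratio of 0.0772 (0.0250 to 0.181). The ratio was 0.130 (0.0765 to 0.207) in the cycling clusters and 0.0701 (0.0301 to 0.139) in the mesenchymal-like clusters, so it was low in each of the 3 states compared. Without clusters 4, 6 and 9 of the large tumor the ratio over epithelial-like cells was 0.136 (0.0971 to 0.186). Anxa11 had 4 UMIs against 293, a ratio of 0.126 (0.0341 to 0.326), and without those clusters 2 UMIs, a ratio of 0.0789 (0.00951 to 0.288).

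The genes next to Anxa8 were also looked at. Of the 8 genes compared within 2 Mb of it, 1 was at least 2-fold lower in the large tumor, where 17.3% of all genes were, 1 was at least 2-fold higher, where 5.9% were, and their median log2 ratio was -0.00083, against -3.10 for Anxa8. Of the 11 genes compared near Anxa11, 1 was at least 2-fold lower, with a median of -0.24. Anxa7, on the same chromosome, was at a ratio of 1.02 (0.906 to 1.16).

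Anxa2 was at 778 CPM in epithelial-like cells of the large and 1883 CPM in those of the medium tumor, a ratio of 0.413 (0.392 to 0.435). It was lower in each of the 3 like states, at 0.416 (0.364 to 0.475) in the gastric pit, 0.547 (0.5 to 0.597) in the cycling and 0.351 (0.314 to 0.392) in the mesenchymal-like clusters. In the monocyte/macrophage-like class, which held more granulocyte marker UMIs in the large tumor, it was at 0.572 (0.443 to 0.729). In stromal-like cells it was at 880.5 CPM (672 to 1133) in the large and 928 CPM (827 to 1037) in the medium tumor, intervals that overlap. The acinar and mesothelial marker levels of that class differed between the tumors.

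Anxa5 was at 631 CPM in the large and 309 CPM in the medium tumor, a ratio of 2.04 (1.92 to 2.17), and 2.48 (2.33 to 2.64) without clusters 4, 6 and 9 of the large tumor. When each cell was classed by its own markers, the ratio with 1 UMI added was 1.97, just under the threshold. It was 1.88 (1.5 to 2.34) in the gastric pit, 2.43 (2.17 to 2.73) in the cycling and 2.23 (2.01 to 2.48) in the mesenchymal-like clusters. In the monocyte/macrophage-like class it was 1.21 (0.875 to 1.66).

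Anxa3 was at 942 against 705 CPM, a ratio of 1.34 (1.27 to 1.40), and 1.62 (1.54 to 1.70) without those clusters. It was at 1.84 (1.60 to 2.10), 2.11 (1.96 to 2.27) and 2.07 (1.82 to 2.36) in the gastric pit, cycling and mesenchymal-like clusters, and at 1.63 (1.33 to 1.98) in the monocyte/macrophage-like class with its different granulocyte marker level. Anxa10 was at 185 against 107 CPM, a ratio of 1.73 (1.55 to 1.94), and at 1.49 (1.16 to 1.89) and 1.29 (1.03 to 1.59) in the gastric pit and cycling clusters. In the mesenchymal-like clusters it was at 125 CPM against 42.8 CPM, from 56 and 79 UMIs. Anxa1 was at 0.666 (0.611 to 0.724) over all epithelial-like cells, at 0.788 (0.722 to 0.859) without clusters 4, 6 and 9, and at 1.07 (0.894 to 1.27), 0.976 (0.840 to 1.13) and 0.733 (0.607 to 0.880) in the gastric pit, cycling and mesenchymal-like clusters. In the monocyte/macrophage-like class it was at 1.59 (1.18 to 2.12).

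Set beside all genes, 0 of 8 annexins in the gastric pit clusters were at least 2-fold higher where 6.83% of genes were, and 2 were at least 2-fold lower where 19.2% were. In the cycling clusters 2 of 8 were higher where 5.88% of genes were, and 1 was lower where 16.2% were. In the mesenchymal-like clusters 2 of 7 were higher where 9.97% of genes were, and 2 were lower where 21.4% were. Anxa8 was among the lower in the gastric pit, cycling and mesenchymal-like clusters. It had 5, 18 and 8 UMIs in those of the large tumor against 687, 796 and 471 in the medium tumor. It thus passed the minimum of UMIs only through the medium tumor. Anxa10, at 125 against 42.8 CPM in the mesenchymal-like clusters, had 56 and 79 UMIs. It was under the minimum and is not among the 7. In monocyte/macrophage-like cells 0 of 4 were past 2-fold, where 9.71% of genes were higher and 11.6% lower. With clusters 4, 6 and 9 left out, 1 of all annexins was higher where 5.7% of genes were, and 3 were lower where 18.3% were. Among the lower, Anxa8 and Anxa11 had 40 and 2 UMIs in the large tumor and again passed the minimum only through the medium tumor.

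**Figure D4:**
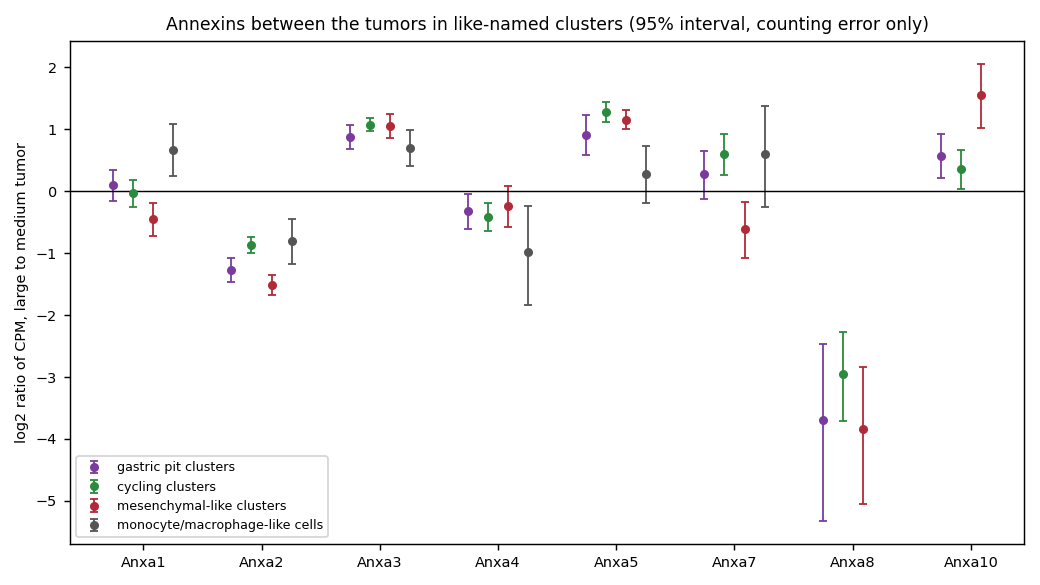
Log2 ratio of CPM, large to medium tumor (y axis), for 8 annexins in clusters of like state and in monocyte/macrophage-like cells, with 95% intervals for counting error, where both sides had more than 3 UMIs. Anxa2 and Anxa8 lay below 0 and Anxa3, Anxa5 and Anxa10 above 0 in the 3 carcinoma states, and Anxa11 is left out for its low counts.

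A share of cells with a UMI depends on depth, so every cell was thinned to 500 UMIs, and no cell was shallower. Anxa10 was then found in 4.72% (3.90 to 5.66) of epithelial-like cells of the medium and 7.14% (5.76 to 8.73) of those of the large tumor, against 34.1% and 19.5% before thinning, when median depths were 5978.5 and 1174 UMIs. In monocyte/macrophage-like cells, a class not known for the gene, it was in 0 of 238 cells, which by a limit of 3 counts allows a share of cells with a UMI of up to 1.26%, and in 0.395% of 253 cells, where median depths before thinning were 3516 and 688 UMIs. Anxa5 was in 43.8% (37.9 to 49.9) of mesenchymal-like cells of the large and 21.2% (16.1 to 27.2) of those of the medium tumor. It was in 2.34% (0.763 to 5.37) of the enterocyte gene cluster. Anxa1 was in 35.5% (29.5 to 41.9) of the Krt17 and Tnc cluster and in 13.7% to 22.1% of the other carcinoma clusters of the medium tumor. Anxa8 was in 7.81% (6.75 to 8.98) of epithelial-like cells of the medium and 1.15% (0.629 to 1.92) of those of the large tumor, against 0.420% and 0.395% of monocyte/macrophage-like cells.

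**Figure D5:**
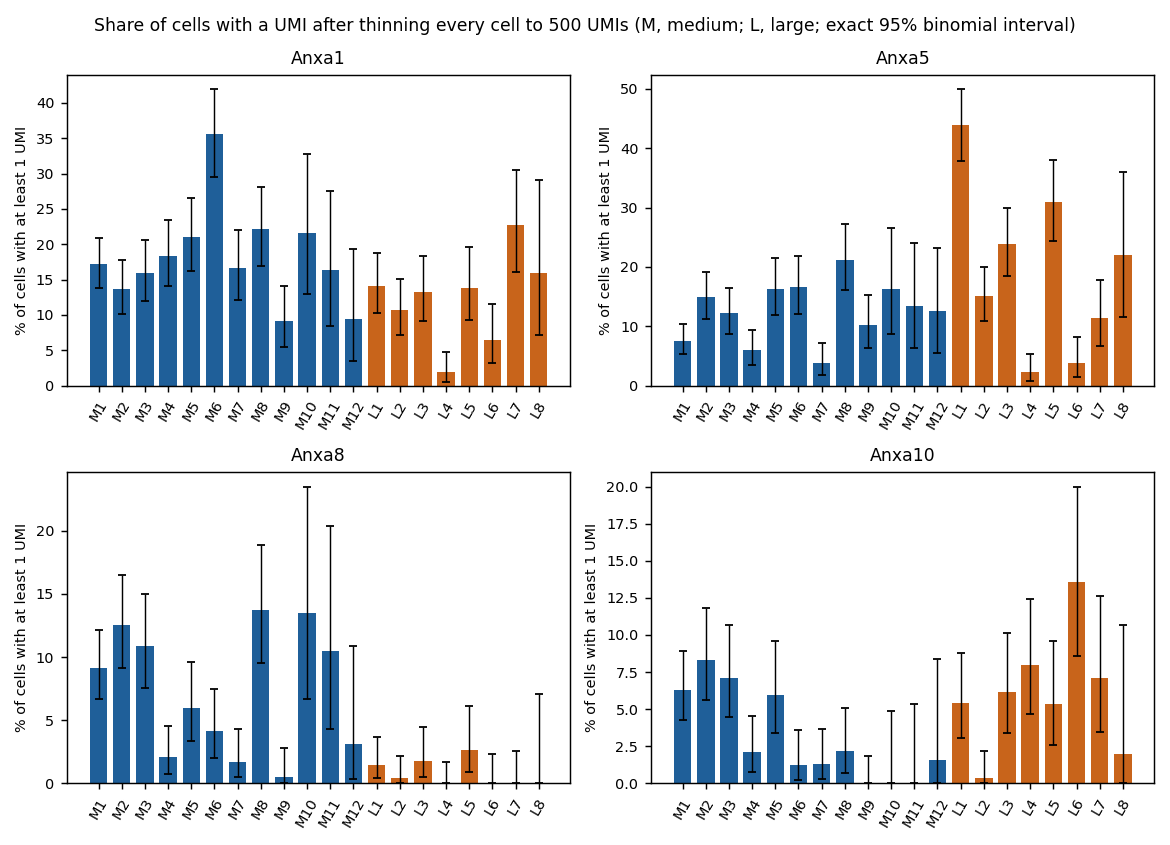
Share of cells with at least 1 UMI of Anxa1, Anxa5, Anxa8 and Anxa10 in percent (y axis, bars from 0) by cluster of at least 50 cells, after thinning to 500 UMIs, with exact 95% binomial intervals (M, medium tumor; L, large tumor). The mesenchymal-like cluster L1 was at 43.8% for Anxa5 and the Krt17 and Tnc cluster M6 at 35.5% for Anxa1.

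Other genes of the pathway were taken from a list of 23, some of which had no row or too few UMIs. The list held partners of the annexins and 3 annexins outside the 9 members, Anxa6, Anxa9 and Anxa13. Of the 12 compared in the medium tumor, 2 were at least 2-fold higher and 2 at least 2-fold lower in epithelial-like than in other cells, where 11.2% and 8.01% of all genes were. S100a6, a calcium-binding partner of several annexins, was at 12444 against 3487 CPM and S100a11, the partner of Anxa1, at 3256 against 1403 CPM. S100a4 was at 89.5 against 192 CPM and Plat, the tissue plasminogen activator that binds Anxa2, at 65.2 against 149 CPM. In the large tumor 3 of 9 compared were at least 2-fold higher, S100a11, S100a6 and Plat, where 15.8% of all genes were, and 1 was at least 2-fold lower, S100a4, where 8.47% were. Plat thus had the other direction there, with 246 against 114 CPM. With the unnamed cluster left out of the other cells of the medium tumor, S100a4 was at 0.524 (0.465 to 0.593), no longer past 2-fold, and Anxa6 at 0.501 (0.404 to 0.625), which passed only with 1 UMI added. S100a10, the Anxa2 partner, was at 1748 against 1210 CPM in the medium tumor, a ratio of 1.44 (1.39 to 1.5).

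Between the tumors S100a10 and Anxa2 had opposite directions. S100a10 was at 2189 CPM in epithelial-like cells of the large tumor, 1.25 (1.21 to 1.29) times the medium tumor, where Anxa2 was at 0.413. S100a11 was at 0.308 in these cells and at 0.436 in monocyte/macrophage-like cells. Of 12 list genes compared, 1 was at least 2-fold higher in the large tumor, Plat at 246 against 65.2 CPM, and 2 were at least 2-fold lower, S100a11 and Anxa6, where 5.9% and 17.3% of all genes were. Anxa6 had only 21 UMIs over all cells of the large tumor, under the minimum for a comparison there. In the mesenchymal-like cluster of the large tumor Plat was at 476 against 178 CPM and S100a4 at 384 against 73.5 CPM, and these 2 of 9 list genes compared were at least 2-fold higher, where 5.71% of all genes were. Without clusters 4, 6 and 9 their ratios were 2.07 (1.72 to 2.49) and 4.05 (3.16 to 5.21). In that of the medium tumor 1 of 12 was, where 5.93% of all genes were. It was Pla2g4a, a phospholipase, at 79.6 against 24.3 CPM.

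The formyl peptide receptor Fpr2, which binds Anxa1, was at 56.5 CPM in monocyte/macrophage-like and 2.43 CPM in epithelial-like cells of the medium tumor, and Fpr1 at 14.1 and 0.498 CPM. Plg, which encodes plasminogen, and Fpr3 had 0 UMIs in both tumors. Fpr2 had 5 UMIs in monocyte/macrophage-like cells of the large tumor, or 25.5 CPM.

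For the 8 members with at least 1000 UMIs, thus without Anxa11, the most like genes were ranked by Pearson's r of log2(CPM + 10) over the 14 clusters of the medium tumor, among 7838 genes. For Anxa10 they were Asns at 0.95, 1190005I06Rik at 0.95 and Vsig1, a junction protein of stomach epithelium, at 0.95. For Anxa8 they were Tmem138 at 0.95, Jagn1 at 0.95 and Fads3 at 0.95. For Anxa5 they were Dgcr6 at 0.91, Cep170 at 0.90 and Dph6 at 0.89, and for Anxa1 the first were Ddr1 at 0.90 and Fah at 0.87. For Anxa2 the first was Prdx1 at 0.95, for Anxa3 Tspo at 0.89, for Anxa4 Gsto1 at 0.95 and for Anxa7 Cmas at 0.95. The clusters come from 1 library and differ in depth, and no annexin was among the first 3 genes of these 8 members.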

How the data were processed

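Per the labels, the authors dissociated the tumors and made 10x Chromium 3′ v2 libraries. Their processing notes name Cell Ranger and mm10. They deposited whole-number UMI counts per gene and cell barcode without normalization. The Cell Ranger version, the annotation and the cell calling are not given in the sources used here. The 4 technical replicates of each tumor are pooled in its table, so no replicate error could be computed. Intervals and floors cover counting error only, and a count of 0 allows 3 counts, or 0.148 CPM in the medium-size and 1.34 CPM in the large-size tumor as a whole.

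Each tumor was clustered on its own with Seurat 5.3.0 in R 4.3.3 (log normalization to 10000, 2000 variable genes less the annexins, 10 principal components, resolution 0.8). Scrublet in scanpy 1.11.5 called 0 and 9 cells (0.587%) as doublets. Since this few calls can mean that the caller did not work, no cell was removed, and the highest 5% of scores were left out as an alternative. A cluster took a name from at least 3 markers, each in at least 10% of its cells and at 25% or more of the highest cluster's level, unless another class reached 60% of its own markers. UMIs were summed per group, genes with at least 200 UMIs were compared with 1 UMI added to each sum, and 2-fold was the threshold. The ratios printed are of CPM without the added UMI. TMM factors came from edgeR 4.0.16. Motifs were searched on both strands of the RefSeq promoter windows. The 2-fold calls and the ratio intervals were tried on simulated Poisson sums for epithelial-like against other cells of the medium tumor. Clustering, cluster names, thinning and the motif search were not part of that simulation. All 9 members are named in the text, beside list genes past 2-fold with the most UMIs and the 3 genes most alike each member with at least 1000 UMIs. The members, marker lists and comparisons were chosen with earlier results of these data known, and the comparisons of single clusters and of the intestinal clusters were added after their values were seen. Some items of the alleles and of the genes most alike are not reported here.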

Additional observations from a re-analysis of the deposited data

How the results depend on the processing

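No paired analysis was possible because the technical replicates are not told apart in the tables. Of the recomputed log2 ratios of single annexins, 394 stayed within their counting interval and 66 left it, and none that was past 2-fold under the settings of the report changed direction. Of 41 such results, 11 that were not past 2-fold took both directions over the settings. In mesenchymal-like cells of the medium-size tumor at resolution 1.2, Anxa1 had a log2 ratio of 1.36 in place of -0.12, Anxa8 of -1.02 in place of 0.50 and Anxa3 of 0.78 in place of -0.96. In mesenchymal-like cells of the medium-size tumor, 1 annexin was at least 2-fold higher, in place of 0, at resolution 1.2, without the highest 5% of doublet scores and with cells thinned to one depth, and 2 were at least 2-fold lower, in place of 1, at resolution 1.2 and with TMM scaling. At resolution 1.2 the cells called mesenchymal-like were other cells, since all 226 of the main cluster lost the epithelial name. In the large-size tumor, the annexins at least 2-fold higher in epithelial-like cells were 1 with each cell classed by its own markers and 0 with thinning, in place of 2. In the first case Anxa4 was at a log2 ratio of 0.95 and Anxa10 at 1.43, and in the second both were under the minimum of 200 UMIs and not compared. There 1 was lower with no minimum of UMIs, in place of 0. With each cell classed by its own markers, 2 annexins in place of 4 had their highest level in epithelial-like cells there, and 0 in place of 1 were at least 2-fold higher in the large-size tumor. Without thinning, Anxa10 was in 34.1% and 19.5% of epithelial-like cells. Without the unnamed cluster, a setting chosen after seeing the data, 5 annexins in place of 3 were at least 2-fold higher in carcinoma cells of the medium-size tumor. The cause was otherwise not tested. The large-size tumor, with fewer UMIs, limits Anxa8 and Anxa11 most.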
